A study of Mus musculus with 23 samples.

Results

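Sorted tumor cells edited with sg495, a guide RNA against Nr2f6, were compared with sorted control tumor cells in 2 RNA-seq libraries of each. The comparison is 4 of the 23 libraries of the series, and 12874 of the 47643 genes in the table reached a mean of at least 1 TPM over these 4 libraries and were tested. B16F10 is a melanoma line from the C57BL/6 mouse. The sg495 cells, labelled NR2F6 KO, had received the Cy3-labelled guide together with Cas9 protein and were sorted for Cy3 as a pool, so they are not described as a single clone. Control cells are labelled WT. Cells of both groups were grown as subcutaneous tumors in young male C57BL/6 mice with an intact immune system, digested with collagenase D and depleted of stromal cells with magnetic beads, with a CD45 antibody used to check purity. No gate selected melanoma cells positively. The 2 sorted libraries of a second guide, sg492, entered the model as a group of their own, and cultured cells and whole (bulk) tumors of the control and sg495 groups served for comparison. The study asked which changes arise in the melanoma cells themselves and which in the cells that infiltrate a tumor. The labels do not say that the 2 libraries of a group came from separate mice, so p-values measure the spread between these libraries.

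NR2F6 is an orphan nuclear receptor known mostly as a repressor of transcription in lymphocytes. Interferon-γ, released by T cells and NK cells, binds the IFNGR1 and IFNGR2 receptor chains and activates the kinases JAK1 and JAK2. The signal reaches GAS elements in the nucleus and induces IRF1, which binds ISRE elements together with related factors. Genes downstream include the transactivators CIITA and NLRC5, which switch on MHC class II and class I genes, and the families of interferon-inducible GTPases that act against intracellular pathogens.

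The targeted gene was measured first. Nr2f6 (ENSMUSG00000002393, chromosome 8, 71374123 to 71381960, mm10) had 20.3 and 17.7 TPM in the controls and 10.6 and 12.2 TPM with sg495. Both sg495 libraries were below both controls, and the log2 difference was -0.69 ± 0.16 (SE, n = 2 against 2; limma, adjusted p = 0.125), which did not pass the threshold. A frameshift made by Cas9 need not remove the transcript, so the RNA level does not measure the loss of the protein. The related receptors Nr2f1 and Nr2f2 differed by 0.14 and 0.08 on the log2 scale, and neither passed.

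The libraries were melanoma cells by their markers. Dct, an enzyme of melanin synthesis, had 5823 and 5356 TPM in the controls and 5259 and 5967 TPM with sg495. Markers of other cell types were summed in 13 lists. The keratinocyte list was at 0 in each of the 4 libraries. The highest was the endothelial list, at 36.4 and 41.0 TPM in the controls and 44.6 and 39.5 TPM with sg495, nearly all of it Vwf and Egfl7, with Cldn5 and Tek at 0. The skeletal muscle list had 23.5 and 21.4 TPM in the controls and 17.6 and 37.3 TPM with sg495. Ptprc, which encodes the leukocyte antigen CD45, was between 0 and 0.15 TPM. The deposited TPM carry no read totals. Depth per library cannot be read from them, and 12577 to 13078 genes reached 1 TPM in each sorted library compared. Mitochondrial genes took 8.02% of the TPM in sg495 replicate 1 and 3.82% to 4.03% in the other 3 libraries. In sg495 replicate 2 the hemoglobin and heat shock genes were high: Hspa1b, an inducible HSP70, had 300 TPM there and 38.1 to 71.0 TPM in the other 3, and the summed erythroid markers were 33.5 TPM against 5.94 to 7.34 TPM. Control replicate 1 lay above control replicate 2 in 91 of the 111 tested genes of the antigen presentation and interferon lists described below, against 57% of all tested genes.

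Calls required an adjusted p under 0.05 (limma, Benjamini-Hochberg over all tested genes) together with a fold of 1.5 or more on log2(TPM + 1). With sg495, 79 genes were higher (0.614% of those tested) and 38 were lower (0.295%). All of the called genes had both sg495 libraries beyond both controls. Of the 79 genes called higher, 57 belonged to 7 lists of antigen presentation and interferon genes, which hold 111 tested genes, and none of the genes called lower did. The lists were written with earlier results of these data known. Of the 79, 23 had a control mean below 1 TPM and passed the filter through the sg495 libraries. Of the 38 genes called lower, 23 lie on chromosome 8, the chromosome of Nr2f6. Calls rested on all 4 libraries. Without control replicate 1, 34 genes were called higher and 3 lower, and without control replicate 2, 13 and 2. Without sg495 replicate 1 no gene was called by limma, although 1780 had an unadjusted p under 0.05, and without sg495 replicate 2 the counts were 1 higher and 0 lower. In the plot of adjusted p against log2 difference, 57 of the 111 list genes lie among the called genes on the right, and the others spread over both sides of 0.

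**Figure D1:**
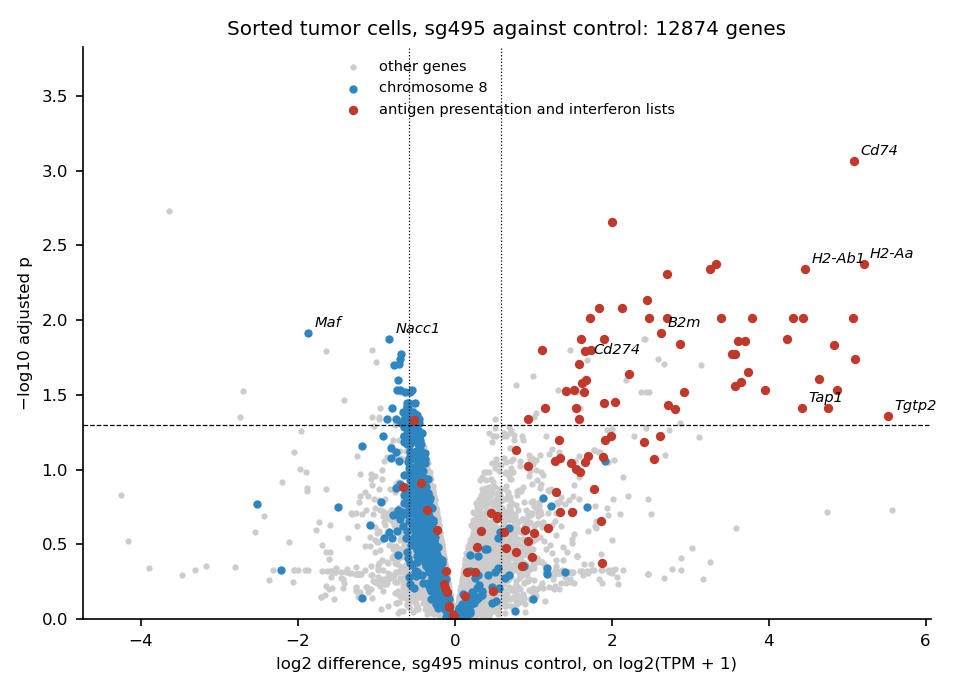
Each point is 1 of the 12874 tested genes, with the log2 difference of sg495 minus control sorted tumor cells on the x axis and the −log10 adjusted p (limma) on the y axis; the dashed line marks 0.05 and the dotted lines a fold of 1.5. Red points are the 111 tested genes of 7 antigen presentation and interferon lists, 57 of which were called higher, and blue points are other genes of chromosome 8, most of them left of 0.

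Genes of MHC class II, the pathway that presents peptides to CD4+ T cells, were among those called with the largest differences. H2-Aa, the α chain of the I-A molecule (chromosome 17, 34282744 to 34287823), was at 0.98 and 0.10 TPM in the controls and at 53.7 and 53.8 TPM with sg495. The difference was 5.21 ± 0.29 on the log2 scale (adjusted p = 0.00421). Its partner chain H2-Ab1 went from 0.50 and 0 TPM to 24.1 and 28.2 TPM, a difference of 4.47 ± 0.27 (adjusted p = 0.00458). H2-Eb1, the β chain of I-E, had 0.38 and 0.14 TPM in the controls and 23.0 and 29.7 TPM with sg495. The groups were far apart in each of these genes, and the sg495 libraries differed little from each other.

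Cd74, the invariant chain that escorts class II molecules through the cell, had 2.18 and 1.39 TPM in the controls and 92.4 and 92.9 TPM with sg495. It had the smallest adjusted p of the genes called higher, 0.000868, at a difference of 5.09 ± 0.17. H2-DMa and H2-DMb1 encode the editor that loads peptides. H2-DMa rose from 0.56 and 0.31 TPM to 14.96 and 13.08 TPM, and H2-DMb1 from 4.61 and 3.52 TPM to 31.3 and 41.1 TPM. In all, 13 class II genes were listed, 7 were tested and 6 were called higher. The median difference over the 7 was 4.44, against -0.04 over all tested genes. Of the 7, 4 passed the filter with a control mean below 1 TPM, that is through the sg495 libraries. The exception, Ifi30, a thiol reductase of the lysosome, lies on chromosome 8 and fell from 79.3 and 74.3 TPM to 51.9 and 54.5 TPM (difference -0.52 ± 0.08, adjusted p = 0.0469), short of a fold of 1.5. Ciita, the master regulator of class II genes, was too low to be tested, with 0.04 and 0 TPM in the controls and 1.76 and 1.10 TPM with sg495.

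**Figure D2:**
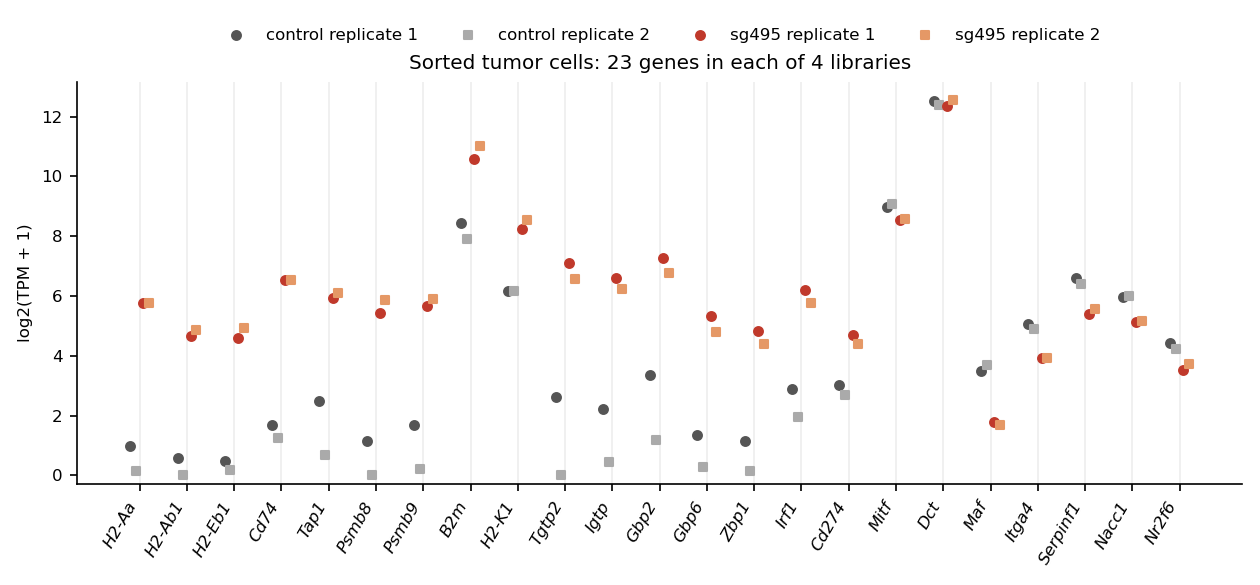
Values of 23 genes as log2(TPM + 1) in each of the 4 sorted libraries, 2 control (gray) and 2 sg495 (red and orange); each point is 1 library. From H2-Aa to Cd274 both sg495 points lie above both control points, the melanocyte gene Dct overlaps, and Maf to Nr2f6 lie below.

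The MHC class I pathway, which presents peptides to CD8+ T cells, moved along most of its length. Of its 17 genes, all were tested, 14 were called higher and none lower, with a median difference of 2.22. Of these 17, 2 had a control mean below 1 TPM. The classical heavy chain H2-K1 had 71.7 and 70.5 TPM in the controls and 304 and 369 TPM with sg495. H2-D1 rose from 75.8 and 50.8 TPM to 352 and 479 TPM. B2m, the light chain shared by class I molecules, rose from 344 and 238 TPM to 1518 and 2086 TPM, a difference of 2.63 ± 0.23 (adjusted p = 0.0122). Class I was thus well expressed in control cells, where class II was near 0. H2-K1, H2-D1 and the class Ib genes are close in sequence, and how the quantification divided reads among them is uncertain.

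The immunoproteasome subunits, which replace those of the standard proteasome, were among the largest changes of the pathway. Psmb8 was at 1.22 and 0 TPM in the controls and at 42.0 and 57.6 TPM with sg495 (difference 5.07 ± 0.39, adjusted p = 0.00961). Psmb9 rose from 2.20 and 0.17 TPM to 49.4 and 59.3 TPM. Psmb10, which was already expressed, rose from 19.9 and 15.2 TPM to 56.2 and 54.5 TPM. The PA28 activator subunits Psme1 and Psme2 differed by 1.52 ± 0.19 and 2.01 ± 0.09, and both were called.

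Peptide transport and loading rose as well. Tap1, a chain of the transporter that carries peptides into the endoplasmic reticulum, had 4.67 and 0.60 TPM in the controls and 60.1 and 67.4 TPM with sg495. Its 5′ end overlaps that of Psmb9 on the opposite strand, and reads in the overlap may be shared. Tap2 rose from 1.7 and 2.52 TPM to 25.1 and 32.0 TPM, and the loading factor Tapbp (tapasin) from 10.7 and 7.33 TPM to 65.8 and 60.5 TPM. The related editor Tapbpl and the trimming peptidase Erap1 differed by 1.58 and 1.91 on the log2 scale and were called. Nlrc5, the class I transactivator, rose from 1.68 and 0.15 TPM to 23.4 and 21.5 TPM, although it lies on chromosome 8. The general chaperones of the endoplasmic reticulum stayed apart from this: Calr, Canx and Pdia3 differed by -0.42, -0.23 and -0.03, and none passed. Of 14 class Ib genes 5 were tested and 2 were called higher, H2-Q4 (16.6 and 13.2 TPM to 61.2 and 76.3 TPM) and H2-T22 (18.8 and 15.7 TPM to 53.6 and 65.3 TPM). H2-T23, which encodes Qa-1, had 5.12 and 6.29 TPM in the controls and 34.1 and 35.0 TPM with sg495, but missed the threshold at an adjusted p of 0.0656.

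The immunity-related GTPases, which attack the vacuoles of intracellular pathogens in mouse cells, held the gene with the largest difference among those called. Tgtp2 was at 5.21 TPM in control replicate 1, listed at 0 in control replicate 2, and at 136 and 94.6 TPM with sg495, a difference of 5.52 ± 0.79 (adjusted p = 0.044). The neighbouring Tgtp1 is nearly identical in sequence and the division of reads between the pair is uncertain. It had 4.71 and 0.51 TPM in the controls and 109 and 65.7 TPM with sg495. Igtp (Irgm3) rose from 3.61 and 0.35 TPM to 95.5 and 74.6 TPM (5.10 ± 0.53, adjusted p = 0.0181). Control replicate 1 was above control replicate 2 in all 10 tested members, so the spread of the controls was large, yet both sg495 libraries exceeded both. Irgm1, a regulator of the family, rose from 12.8 and 4.33 TPM to 118 and 85.6 TPM. Of 14 listed members 10 were tested and 8 were called higher (Igtp, Tgtp1, Tgtp2, Irgm1, Irgm2, Iigp1, Ifi47 and Gm12250), with a median of 3.96. Again 4 of the 10 had a control mean below 1 TPM and were tested only because of their level with sg495. Summed over the 14, the family had 33.5 and 6.29 TPM in the controls and 612 and 427 TPM with sg495.

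The guanylate-binding proteins, a family of larger GTPases, rose as well. Gbp2 had 9.29 and 1.26 TPM in the controls and 152 and 109 TPM with sg495 (4.75 ± 0.65, adjusted p = 0.039). Gbp6 rose from 1.58 and 0.22 TPM to 38.8 and 26.9 TPM, and Gbp3, Gbp4 and Gbp7 were called as well. Gbp5, Gbp9 and Gbp10 did not pass, with 2.89 and 3.79 TPM, 3.77 and 2.05 TPM, and 7.26 and 1.57 TPM in the sg495 libraries. Of 11 listed genes 8 were tested and 5 called, with a median of 3.67. Of the 8, 5 had a control mean below 1 TPM and passed the filter through the sg495 libraries, so a higher value there was a condition of their test. Members of both families are similar in sequence, which makes their single values less certain than their sums.

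Promoter windows of some of these genes are shown because interferon-γ is known to act through short elements near the start. The windows are RefSeq sequence on GRCm38.p6 and run from 250 bases before the start of a transcript to 50 after it, written 5′ to 3′ on the strand of the gene. Capitals mark matches, on either strand, to an ISRE-like motif (GAAA, any 2 bases, GAAA), a GAS-like motif (TTCNNNGAA) or the Y box of MHC genes (CTGATTGG). Igtp (chr11:58199306-58199605, plus strand), Tgtp2 (chr11:49064163-49064462, minus strand) and Gbp2 (chr3:142620413-142620712, plus strand) stand for the GTPases, B2m (chr2:122147437-122147736, plus strand) for class I, Irf1 (chr11:53769764-53770063, plus strand) for the signaling genes, and H2-Aa (chr17:34287774-34288073, minus strand) and H2-Eb1 (chr17:34305617-34305916, plus strand) for class II.
Igtp: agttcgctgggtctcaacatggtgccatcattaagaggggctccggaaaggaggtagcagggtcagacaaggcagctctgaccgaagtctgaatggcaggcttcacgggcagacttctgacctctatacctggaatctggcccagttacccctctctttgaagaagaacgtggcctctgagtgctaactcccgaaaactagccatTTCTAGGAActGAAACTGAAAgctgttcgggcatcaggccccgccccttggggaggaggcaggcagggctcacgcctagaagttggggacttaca
Tgtp2: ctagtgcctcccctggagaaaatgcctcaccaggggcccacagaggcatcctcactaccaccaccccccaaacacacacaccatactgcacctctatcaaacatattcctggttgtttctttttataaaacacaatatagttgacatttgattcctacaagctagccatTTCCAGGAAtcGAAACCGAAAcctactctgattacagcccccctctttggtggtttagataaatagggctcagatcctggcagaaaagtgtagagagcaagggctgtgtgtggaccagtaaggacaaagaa
Gbp2: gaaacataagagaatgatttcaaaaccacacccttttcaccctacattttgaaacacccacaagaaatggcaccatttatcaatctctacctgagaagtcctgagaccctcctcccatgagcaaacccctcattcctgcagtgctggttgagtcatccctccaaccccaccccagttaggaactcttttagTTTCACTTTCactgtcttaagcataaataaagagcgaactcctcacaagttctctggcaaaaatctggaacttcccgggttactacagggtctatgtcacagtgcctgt
B2m: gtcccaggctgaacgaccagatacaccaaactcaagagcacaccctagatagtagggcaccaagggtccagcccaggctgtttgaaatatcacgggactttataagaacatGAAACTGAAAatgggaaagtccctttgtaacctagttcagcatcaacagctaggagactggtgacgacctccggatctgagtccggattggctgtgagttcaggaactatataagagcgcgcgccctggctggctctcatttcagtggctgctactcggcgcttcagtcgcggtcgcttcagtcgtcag
Irf1: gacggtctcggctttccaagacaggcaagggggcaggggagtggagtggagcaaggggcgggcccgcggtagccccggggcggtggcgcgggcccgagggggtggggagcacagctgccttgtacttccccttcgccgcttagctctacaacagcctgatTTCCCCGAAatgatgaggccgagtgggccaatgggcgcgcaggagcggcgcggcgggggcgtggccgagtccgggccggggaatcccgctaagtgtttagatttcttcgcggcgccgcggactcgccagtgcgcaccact
H2-Aa: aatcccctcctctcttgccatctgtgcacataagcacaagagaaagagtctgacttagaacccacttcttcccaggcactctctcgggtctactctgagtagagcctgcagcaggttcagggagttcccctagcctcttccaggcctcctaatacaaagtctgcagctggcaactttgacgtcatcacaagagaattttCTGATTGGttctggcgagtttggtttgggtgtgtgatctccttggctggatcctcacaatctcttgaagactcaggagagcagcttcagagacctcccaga
H2-Eb1: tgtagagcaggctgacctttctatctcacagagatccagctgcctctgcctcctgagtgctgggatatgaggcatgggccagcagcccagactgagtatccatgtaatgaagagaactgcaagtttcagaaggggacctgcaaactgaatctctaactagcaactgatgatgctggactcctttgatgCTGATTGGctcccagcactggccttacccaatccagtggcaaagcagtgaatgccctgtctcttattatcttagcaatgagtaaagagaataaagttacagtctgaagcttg
In Igtp and Tgtp2 a GAS-like match was followed after 2 bases by an ISRE-like match, which began 34 and 70 bases before the start. The Y box began 51 bases before the start in H2-Aa and 62 in H2-Eb1. Of the 7 tested class II genes 5 had a window. Of these 5, 2 held the Y box, the ones shown, and none held the ISRE-like or GAS-like motif. Every window shown holds a match, and a second Irf1 window, not shown, holds none. Of all 32851 windows, 3.44% held the ISRE-like motif, 8.3% the GAS-like motif and 4.1% the Y box. These shares are per window, while the list counts take a gene as matched if any of its windows was. Counted per gene, 315 of the 8946 tested genes with a window held the ISRE-like motif, 734 the GAS-like motif and 628 the Y box. Of the 10 tested immunity-related GTPases 8 had a window, and 6 of these held the ISRE-like and 5 the GAS-like motif. Of the 17 class I pathway genes 14 had a window, with 3 ISRE-like, 1 GAS-like and 5 Y box matches. Windows were matched for 53 of the 79 genes called higher, under 80%, so no share is given for them. A match is a description of letters and does not show that a factor binds there.

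The interferon pathway upstream of these genes was uneven. Some of its members passed the test and most did not. Irf1, a transcription factor at its end, rose from 6.4 and 2.91 TPM to 73.3 and 53.7 TPM (3.57 ± 0.36, adjusted p = 0.0167). Irf9, part of the type I interferon complex ISGF3, rose from 5.61 and 3.97 TPM to 18.6 and 13.4 TPM. Stat3 was called at a smaller difference, 0.94 ± 0.14 (adjusted p = 0.046). The receptors and kinases did not pass. Ifngr1 had 16.6 and 16.7 TPM in the controls and 13.1 and 12.5 TPM with sg495, and Ifngr2, Ifnar1, Ifnar2, Jak1, Jak2 and Tyk2 differed by -0.13 to 0.15. Of the feedback inhibitors, Socs1 had 0.36 and 0.66 TPM against 1.97 and 1.64 TPM and Usp18 2.62 and 0.47 TPM against 6.24 and 7.68 TPM, and neither passed. Irf2, a factor of the IRF family on chromosome 8, had 14.8 and 13.0 TPM in the controls and 8.56 and 8.35 TPM with sg495 (-0.65 ± 0.15, adjusted p = 0.131). Of 19 tested signaling genes 4 were called higher, beside 0.614% of all tested genes, and none lower. Of the 19, 12 had both sg495 libraries above both controls, beside 18.1% of all tested genes, and 7 had a negative difference. None of the 8 interferon ligands listed reached the filter. Ifng was at 0.06 and 0.07 TPM in the controls and at 0 in both sg495 libraries, and 6 of the 8 were at 0 in each of the 4 libraries.

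Genes of the antiviral program that type I and type II interferons share rose in part. Of 45 tested genes 43 had a positive difference, beside 43.4% of all tested genes, and 18 were called higher, with a median of 1.34. For 12 of the 45 the control mean was below 1 TPM, so that they could pass the filter only with a higher mean with sg495. Zbp1, a sensor of Z-form nucleic acid, rose from 1.21 and 0.11 TPM to 27.2 and 20.1 TPM (3.96 ± 0.48, adjusted p = 0.0294). Parp12 and Parp14, antiviral ADP-ribosyltransferases, differed by 1.84 ± 0.13 and 2.04 ± 0.27. Bst2 (tetherin), which holds budding virus at the membrane, rose from 47.0 and 42.2 TPM to 126 and 152 TPM, and Ifitm3, which blocks viral entry, from 68.9 and 50 TPM to 185 and 191 TPM. The apolipoprotein L genes Apol9a and Apol9b were called at 3.53 and 3.33, and as near copies they may share reads. Classical genes of the type I response were less clear. Isg15 had 12.2 and 6.09 TPM in the controls and 28.9 and 19.1 TPM with sg495 (1.34 ± 0.39, adjusted p = 0.193), Ifit1 had 5.70 and 3.24 TPM against 9.19 and 7.18 TPM (adjusted p = 0.358), and Ifit2 was near 20 TPM throughout (difference -0.02 ± 0.10). Ifit3, Rsad2 and Ddx58 were called, at 1.42, 1.65 and 1.58.

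Other immune lists held at most 2 genes called higher each, beside 0.614% of all tested genes. Cd274, the checkpoint ligand PD-L1, rose from 7.10 and 5.38 TPM to 24.9 and 19.9 TPM (1.69 ± 0.18, adjusted p = 0.0185) and was the only call among 9 tested checkpoint and surface proteins. The phagocytosis inhibitor Cd47 and the TIGIT ligand Pvr differed by 0.21 and 0.35 and did not pass. The complement genes C4b (7.84 and 3.95 TPM to 39.8 and 38.2 TPM) and C2 (65.7 and 58.3 TPM to 102 and 112 TPM) were called among 6 tested. All 6 had a positive difference, beside 43.4% of all tested genes. Both sg495 libraries were above both controls in 5 of them, beside 18.1% of all tested genes. Il18bp, a soluble inhibitor of interleukin-18, rose from 0.84 and 0.11 TPM to 6.71 and 6.79 TPM. Among 12 tested genes of inflammatory cell death it was the only one called higher.

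Chemokines that draw T cells were not called. Cxcl10 had 42.4 and 56.0 TPM in the controls and 75.7 and 89.0 TPM with sg495. Both sg495 libraries were above both controls, which 18.1% of all tested genes also were, and the difference of 0.74 ± 0.24 had an adjusted p of 0.237. Ccl5 overlapped between the groups at 7.29 and 3.69 TPM against 5.73 and 12.5 TPM. Cxcl9 was too low to be tested, with 0.07 and 0.05 TPM against 1.79 and 0.47 TPM. No gene of the NF-kB pathway (11 tested, median 0.30) or of nucleic acid sensing (9 tested, median 0.08) was called, the sensors and adaptors Tmem173 (STING), Mavs and Mb21d1 (cGAS) included. A positive difference was seen in 10 of the 11 and 6 of the 9, beside 43.4% of all tested genes. Both sg495 libraries were above both controls in 6 of the 11 and 3 of the 9, beside 18.1%.

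Genes called higher outside the 7 lists numbered 22. Axl, a receptor tyrosine kinase linked to the dedifferentiated state of melanoma, rose from 1.53 and 2.15 TPM to 13.7 and 14.5 TPM (2.42 ± 0.22, adjusted p = 0.0135). Mbp, the myelin basic protein gene, rose from 48.6 and 39.8 TPM to 112 and 110 TPM. In the neural crest and glial list 8 genes were tested and 2 were called higher, beside 0.614% of all tested genes. Of the 8, 4 had a negative difference, beside 56.6% of all tested genes, and the median was -0.03. Tinagl1, a protein of the matrix, rose from 186 and 204 TPM to 390 and 386 TPM, and the immediate early gene Egr1 from 33.1 and 44.5 TPM to 78.5 and 94.5 TPM. The following were chosen after their values were seen: Batf2, an interferon-inducible bZIP factor (2.18 ± 0.25), Ube2l6, the conjugating enzyme of ISG15 (1.71 ± 0.16), Parp10 (1.69 ± 0.16), Icam2, an adhesion molecule (1.56 ± 0.19), Cited1, a transcriptional co-regulator of the melanocyte lineage (1.04 ± 0.15), and Tcf7 (1.01 ± 0.15). The predicted genes Gm14017, Gm23245 and Gm26003 were called with both controls listed at 0 and with 3.89 to 10 TPM in the sg495 libraries, and no fold is given for them.

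Apart from the neural crest and glial list, lists for programs of the melanoma cell itself held few called genes, though some leaned toward negative differences. Of 15 tested melanocyte genes none was called, and their median was 0.00. Mitf, the lineage's master factor, had 498 and 535 TPM in the controls and 369 and 384 TPM with sg495, below both controls but short of the threshold (difference -0.46 ± 0.07, adjusted p = 0.0556). Tyr, Tyrp1, Pmel and Sox10 differed by -0.10, 0.03, 0.14 and -0.02. None of the 28 cell cycle genes was called. Of these, 23 had a negative difference, beside 56.6% of all tested genes, and 21 had both sg495 libraries below both controls, beside 31.5%. Their median was -0.21. Mcm2, a subunit of the replicative helicase, had 220 and 219 TPM against 175 and 189 TPM, and Cdk1 had 202 and 215 TPM against 164 and 180 TPM.

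All 19 cholesterol synthesis genes had a negative difference, beside 56.6% of all tested genes, with a median of -0.30. Of these, 16 had both sg495 libraries below both controls, beside 31.5% of all tested genes, but none was called. Hmgcs1, an early enzyme of the pathway, had 92.1 and 97.1 TPM against 70.3 and 58.7 TPM (adjusted p = 0.186). ATF4 target genes were also on the negative side, 15 of 17 beside 56.6% of all tested genes, with a median of -0.22 and no call. The cystine transporter Slc7a11 had 19.3 and 21.3 TPM against 12.4 and 10.3 TPM (adjusted p = 0.0637). Slc7a5, a transporter of large amino acids on chromosome 8, passed on its adjusted p (0.0452) but not on its fold (difference -0.55 ± 0.08). Hypoxia and glycolysis genes leaned the other way, 27 of 34 beside 43.4% of all tested genes, with a median of 0.11 and no call. Without sg495 replicate 2 that median was -0.00051. Vegfa had 185 and 197 TPM against 281 and 287 TPM (adjusted p = 0.196). Among 15 collagen-modifying enzymes none was called. The prolyl isomerase Fkbp10 had 41.5 and 44.9 TPM in the controls and 26.1 and 20.8 TPM with sg495, with no overlap (difference -0.86 ± 0.16, adjusted p = 0.0821). Heat shock and metal response genes had no call either. The plot of list members shows the antigen presentation and GTPase lists at the top.

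**Figure D3:**
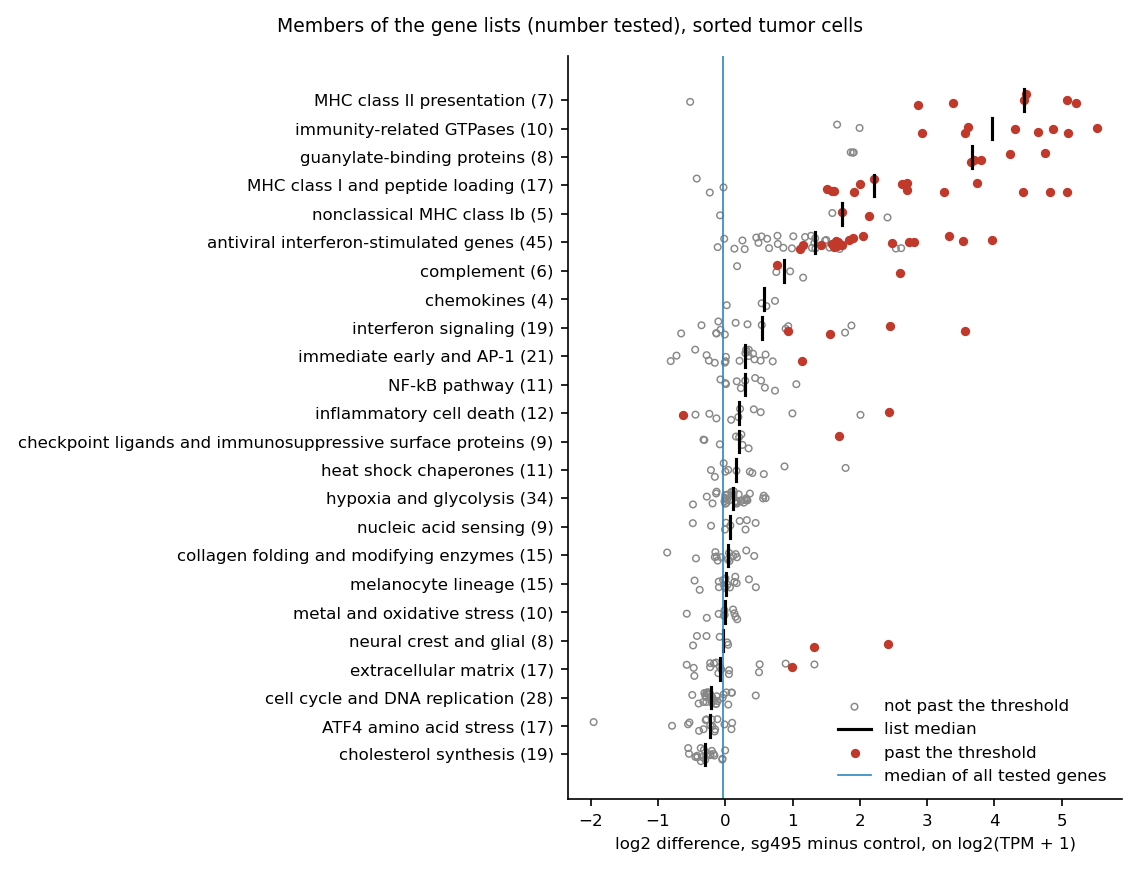
Each point is 1 tested member of a gene list, with its log2 difference of sg495 minus control sorted tumor cells on the x axis; filled points passed the threshold, black bars are list medians and the blue line is the median of all tested genes, -0.04. The lists at the top, from MHC class II (median 4.44) to the antiviral genes (1.34), have the highest medians, and those of the remaining lists run from -0.30 to 0.87.

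Genes called lower were fewer. Maf, a bZIP transcription factor on chromosome 8, fell from 10.3 and 11.95 TPM to 2.44 and 2.22 TPM (-1.86 ± 0.16, adjusted p = 0.0122). Fam81a fell from 6.06 and 5.95 TPM to 1.28 and 1.22 TPM (-1.64 ± 0.16, adjusted p = 0.0161). Itga4, the α4 integrin, had 32.5 and 29.0 TPM in the controls and 14.3 and 14.2 TPM with sg495. Serpinf1, the anti-angiogenic factor PEDF, fell from 95.1 and 83.5 TPM to 41.4 and 46.7 TPM (-1.0 ± 0.11, adjusted p = 0.0189). St6galnac3, a sialyltransferase, fell from 14.8 and 18.4 TPM to 7.92 and 8.07 TPM, and Eno1b, an enolase gene copy, from 9.22 and 8.56 TPM to 3.6 and 3.9 TPM. In each of these the groups were well apart. Pycard, the inflammasome adaptor ASC, was also called lower, with a difference of -0.73 on the log2 scale. Its values were known when it was chosen. Of the 15 genes called lower away from chromosome 8, 7 were protein coding. The small RNA genes Gm24837, Gm25965 and Gm25596 were listed at 0 in both sg495 libraries and at 3.79 to 11.9 TPM in the controls, in libraries made from poly(A) RNA, and no fold is given.

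On chromosome 8 the difference was shallow and broad. The median over its 678 tested genes was -0.34, and 85.7% of them were below 0. The medians of the 18 other autosomes ran from -0.09 to 0.02, with 54.8% of 11717 genes below 0. In bins of 10 Mb along the chromosome all 13 medians were negative, from -0.42 to -0.25, with 14 to 106 genes in a bin. The 63 tested genes that start within 1 Mb of the start of Nr2f6 had a median of -0.34, no further from 0 than the chromosome as a whole. Each of the 4 pairs of an sg495 and a control library gave a chromosome 8 median between -0.41 and -0.31.

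Of the 23 chromosome 8 genes called lower, Maf had the largest difference, -1.86, and the others lay between -0.87 and -0.59. Nacc1, a BTB-domain repressor, had 61.8 and 63.5 TPM in the controls and 34.2 and 35.0 TPM with sg495 (-0.84 ± 0.07, adjusted p = 0.0135). Hgsnat, a lysosomal acetyltransferase, fell from 149 and 137 TPM to 74.3 and 90.3 TPM, and Atmin, a cofactor of ATM, from 13.6 and 14.2 TPM to 6.67 and 7.69 TPM. When the chromosome 8 genes were shifted by their own median, 9 genes were called lower in all. Nacc1, Hgsnat and Atmin were then short of the fold required for a call. Their smallest differences over the alternative runs were -0.55, -0.51 and -0.58. With 1 library left out, the smallest were -0.82, -0.66 and -0.78. The calls of these genes therefore depended on the shift, although none of them changed sign in any alternative run. How far their differences stand apart from the shift of the whole chromosome was not tested. On chromosome 8, 3 genes were called higher, Nlrc5, Psmb10 and Bst2. The same chromosome had a median of -0.32 for sg495 against control in cultured cells and -0.26 in bulk tumors. In the sorted sg492 libraries against the same controls it was 0.02.

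**Figure D4:**
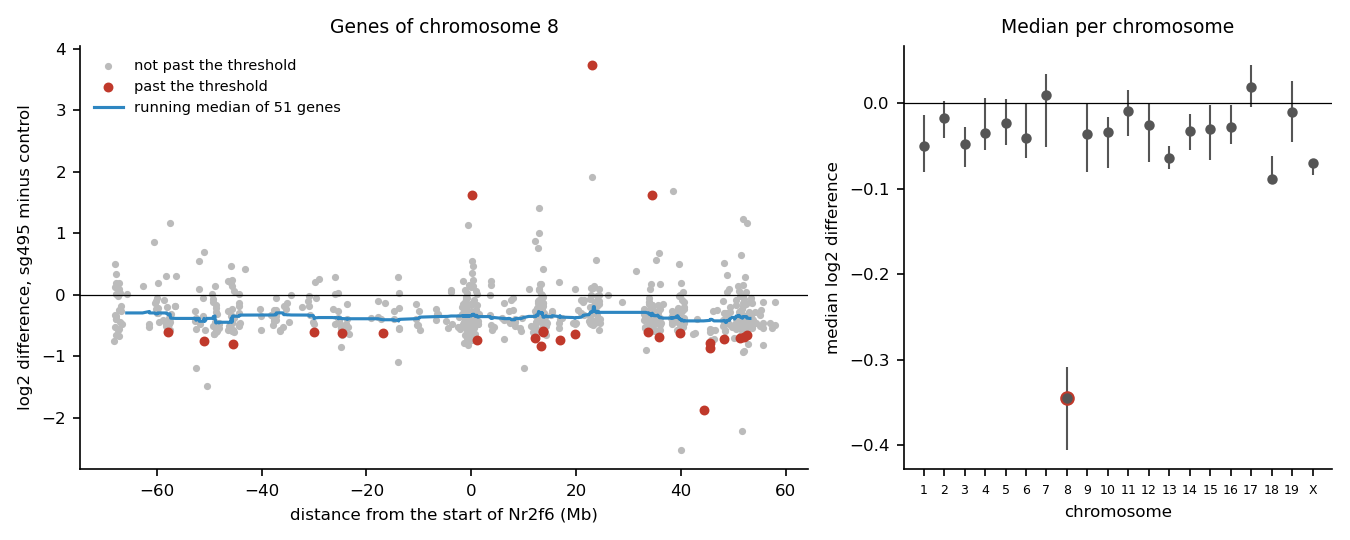
Left, log2 difference of sg495 minus control sorted tumor cells for the 678 tested genes of chromosome 8 against distance from the start of Nr2f6 in Mb, with called genes in red and a running median in blue. Right, the median log2 difference of each chromosome with the lowest and highest of the 4 pairs of libraries as bars; chromosome 8 (red) is at -0.34 and the other autosomes lie between -0.09 and 0.02.

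The effect of sg495 was then compared with that in cultured cells by an interaction contrast in the 18 libraries of the 3 sample types. It was larger in sorted tumor cells for 244 genes (1.9% of those tested) and smaller for 85 (0.66%). Here larger and smaller refer to the signed log2 difference, so a gene that fell further in sorted cells counts as smaller. Of the 244 genes, 74 were in the antigen presentation and interferon lists, and none of the 85 was. H2-Aa was at or near 0 in culture, and the 4 class II genes H2-Aa, H2-Ab1, H2-Eb1 and Cd74 summed to 0.11 and 0.28 TPM in cultured controls and 0.06 and 0.42 TPM in cultured sg495 cells. The effect on H2-Aa was 5.21 ± 0.42 larger in sorted cells (adjusted p = 6.78e-05). Larger effects were also found for 14 of the 17 class I pathway genes and 7 of the 8 guanylate-binding proteins. The same held for 9 of the 10 immunity-related GTPases and 29 of the 45 antiviral genes. The filter used only the 4 sorted libraries compared. In the order named, 2, 5, 4 and 12 of these tested genes had a sorted control mean below 1 TPM, as had 4 of the 7 class II genes. They passed through the sorted sg495 libraries, so a larger effect in sorted cells was partly a condition of their test. Of the 34 hypoxia and glycolysis genes 16 had a larger effect in sorted cells, where the median was 0.11, than in culture, where it was -0.63. For Mbp (adjusted p = 0.770), Tinagl1 (0.962) and Nacc1 (0.155) the difference between sorted and cultured cells did not pass, and no chemokine, melanocyte or cholesterol gene passed. Without control replicate 1 the counts were 157 larger and 60 smaller, and without control replicate 2 they were 145 and 54.

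Against bulk tumors, which hold the infiltrating cells too, the effect of sg495 was larger in sorted cells for 8 genes (0.0621%) and smaller for 9 (0.0699%). A fit of the 12 libraries of these sample types left 1 larger and 0 smaller by limma, and with the replicate number as a block 3 and 2 were left. The 8 were H2-Aa, H2-Ab1, H2-Eb1, Cd74, H2-DMa and Psmb8, with Egr1 and the histone gene Hist1h2ad, the last chosen after its values were seen. All of these except Cd74 and Egr1 had a sorted control mean below 1 TPM. They passed the filter through the sorted sg495 libraries, so a larger effect in sorted cells was partly a condition of their test. The effect on Cd74 was 5.09 in sorted cells and 1.5 in bulk tumors, a difference of 3.59 ± 0.38 (adjusted p = 0.00347). Levels of the same genes were higher in bulk tumors of both groups: the 4 class II genes summed to 679 and 332 TPM in bulk controls and 1238 and 1395 TPM with sg495, against 4.04 and 1.63 TPM and 193 and 205 TPM in sorted cells. The 9 with a smaller effect, on the signed scale, included Maf, Ifi30 and Ifngr1. Maf differed by -1.86 in sorted cells and by -0.39 in bulk tumors, so it fell further in sorted cells. Ifi30 and Ifngr1 differed by -0.52 and -0.35 in sorted cells and by 0.25 and 0.41 in bulk tumors. These counts moved with single libraries: 16 genes had a larger effect without control replicate 1 and 31 without sg495 replicate 2, and 5 had a smaller effect without sg495 replicate 1 and 30 without sg495 replicate 2. Fewer cells of a type and less RNA per cell cannot be told apart in bulk tumors.

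Markers of other cells were summed in each library beside these results. The 12 macrophage markers came to 5.81 and 4.40 TPM in sorted controls and 8.39 and 14.5 TPM with sg495, most of it Cd68 (5.06 and 3.62 TPM, 6.76 and 12.1 TPM). Bulk tumors had 712 and 495.2 TPM in controls and 1030 and 1096 TPM with sg495. The 4 class II genes were 0.695 and 0.37 times the macrophage sum in sorted controls, 23.0 and 14.1 times in sorted sg495 cells, and 0.67 to 1.27 times in the 4 bulk tumor libraries. The same 12 markers summed to 2.57 and 2.26 TPM in cultured controls and 6.17 and 4.68 TPM in cultured sg495 cells. The sum, and a ratio to it, therefore does not measure macrophage content alone. The macrophage marker Adgre1 was at 0 to 0.02 TPM, and the dendritic cell markers Itgax, Flt3, Xcr1 and Clec9a were at 0 in all 4 libraries. The whole dendritic cell list of 9 genes summed to 6.10 and 5.20 TPM in the controls and 4.46 and 6.67 TPM with sg495. Most of it was Zbtb46 and Batf3. In culture the list summed to 9.55 and 8.16 TPM in controls and 8.21 and 7.77 TPM with sg495. The 10 leukocyte markers summed to 11.6 and 10.9 TPM in sorted controls and 14.2 and 14.9 TPM with sg495, and the 12 T cell markers to 5.62 and 3.80 TPM and 6.87 and 6.52 TPM. Cd68 was the only macrophage marker high enough to be tested. Both sg495 libraries were above both controls, and the difference of 0.93 ± 0.28 had an unadjusted p of 0.0154 and an adjusted p of 0.204. No marker of the 13 lists was called, although 1 macrophage marker, which is Cd68, was called higher in the fit of all 18 libraries. The part of the few remaining cells in the differences was not tested.

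**Figure D5:**
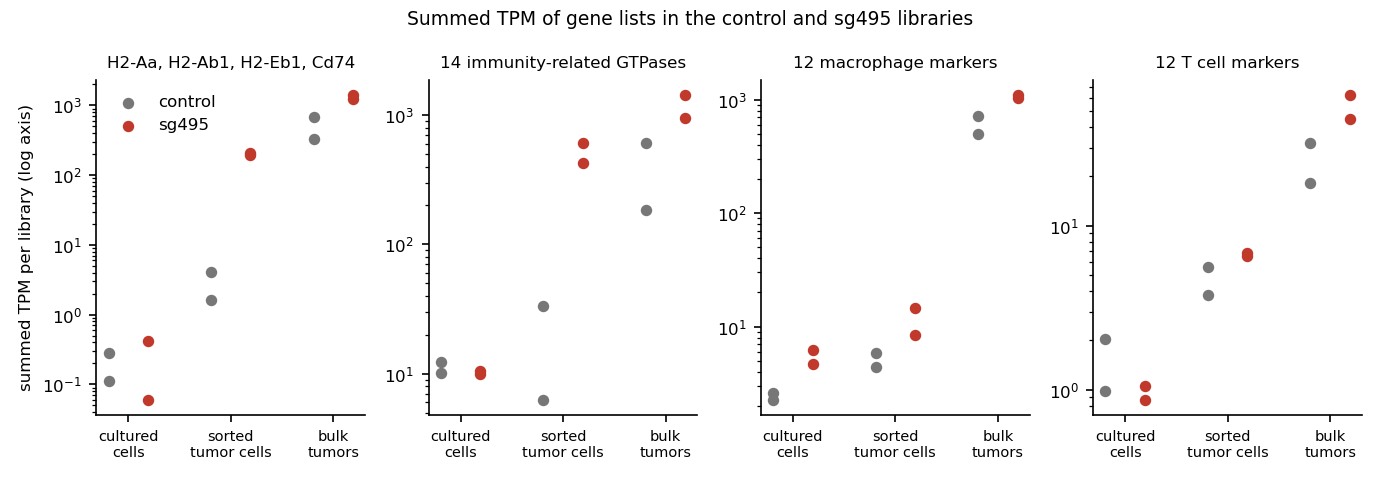
Summed TPM per library, on a log axis, of 4 class II genes, 14 immunity-related GTPases, 12 macrophage markers and 12 T cell markers in control (gray) and sg495 (red) libraries of cultured cells, sorted tumor cells and bulk tumors; each point is 1 library. In sorted cells the class II sum was 4.04 and 1.63 TPM in controls and 193 and 205 TPM with sg495, and the macrophage sum was 5.81 and 4.40 TPM in controls and 8.39 and 14.5 TPM with sg495.

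Both guides target Nr2f6, and the sg495 libraries were compared directly with those of sg492. With sg495, 51 genes were higher (0.396% of those tested) and 22 lower (0.171%). Of the 51, 39 were in the antigen presentation and interferon lists, and of the 22, 14 lay on chromosome 8. The filter used the control and sg495 libraries, not those of sg492. For genes low in the controls, a higher value with sg495 was thus partly a condition of the test. Cd74 had 1.77 and 1.82 TPM with sg492, near the controls, and was 5.07 ± 0.17 lower there than with sg495 (adjusted p = 0.000445). Igtp had 4.51 and 4.40 TPM with sg492. B2m had 406 and 331 TPM and Cd274 4.64 and 4.93 TPM, each below both sg495 libraries. Tgtp2, at 6.48 and 3.97 TPM with sg492, was 4.23 higher with sg495 but did not pass (adjusted p = 0.0983). Nr2f6 itself had 19.8 and 25.7 TPM with sg492. Among the sorted libraries of sg492 and control no gene was called by limma, while 906 had an unadjusted p under 0.05. Without sg495 replicate 1, and likewise without sg495 replicate 2, the direct comparison of the guides called 0 genes higher and 1 lower by limma. It called 14 higher and 1 lower without sg492 replicate 1, and 7 higher and 3 lower without sg492 replicate 2.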

How the data were processed

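RNA-seq of poly(A)-selected RNA was measured in cultured cells, sorted tumor cells and bulk tumors. The authors trimmed reads with Cutadapt 2.3, aligned them to mm10 with STAR 2.7.0d and estimated expression with RSEM 1.3.1, per the submitters' processing notes, and deposited TPM, transcript abundance scaled to the same total in each library. TPM keep no depth, so counting intervals were not computed, and a rise of abundant transcripts in a library lowers the values of its other genes.

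Genes averaging 1 TPM or more in the 4 libraries were tested on log2(TPM + 1) with limma 3.58.1 (R 4.3.3, eBayes with trend and Benjamini-Hochberg adjustment). The 6 sorted libraries shared 1 estimate of the spread, and interactions used the 18 libraries of the 3 sample types. Error values are standard errors of the log2 difference. An exact permutation test of 2 libraries against 2 cannot give a p below 0.333 (two-sided), so none is reported. The fit was tested on simulated data. The authors' count-based test was not repeated, since TPM are not counts.

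The genes, lists and comparisons were chosen with earlier results of these data known. Named genes were Nr2f6, Nacc1, Fkbp10 and Cxcl10, the 15 largest differences called in each direction, and called or defining members of the lists. Coordinates are from GENCODE M21, which holds 99.1% of the genes. Some genes of the lists are not reported here.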

Additional observations from a re-analysis of the deposited data

Results flagged for a closer look

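Of the named genes, the following had a sg495 effect that differed between sample types, on the log2(TPM + 1) scale. The test was the interaction contrast (limma, adjusted over all tested genes). These genes were named for the size of their difference in sorted cells, so a differing effect there is partly a result of that choice. For sorted tumor cells minus cultured cells, the class II genes H2-Aa, Cd74, H2-Ab1 and H2-Eb1 differed by 5.21, 5.08, 4.47 and 4.39, with adjusted p of 6.78e-05, 5.08e-05, 5.08e-05 and 0.000294. The class I pathway genes Psmb8, Psmb9 and Tap1 differed by 5.19, 4.83 and 4.62, with adjusted p of 0.000466, 0.00261 and 0.00407. Among the GTPases, Tgtp2, Igtp, Tgtp1, Gbp2, Iigp1, Ifi47 and Gbp6 differed by 5.63, 5.12, 4.87, 4.75, 4.72, 4.69 and 4.28, with adjusted p from 0.00338 (Igtp) to 0.0115 (Tgtp1). Zbp1 differed by 3.96 (adjusted p = 0.00691).

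In the other direction, the effect was lower in sorted than in cultured cells for the predicted gene Gm10241 by -1.60 (adjusted p = 0.0106) and for Itga4 by -1.18 (adjusted p = 0.00364).

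For sorted tumor cells minus bulk tumors, H2-Aa, Cd74, Psmb8, H2-Eb1 and H2-Ab1 differed by 3.81, 3.59, 3.61, 3.03 and 2.93, with adjusted p from 0.00347 (H2-Aa) to 0.0313 (Psmb8). Maf differed by -1.47 (adjusted p = 0.0109).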

How the results depend on the processing

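None of the 15 named genes called in each direction changed sign under any alternative run. List medians near 0 did: without sg495 replicate 2 those of the hypoxia, melanocyte, collagen enzyme and heat shock lists were -0.00051, -0.08, -0.04 and -0.08, and without control replicate 2 that of nucleic acid sensing was -0.04. The medians of the extracellular matrix, metal response and neural crest lists, from -0.08 to -0.01, were up to 0.07, 0.25 and 0.10 under at least 1 alternative. Counts of called genes depended on every library and on the estimate of the spread, which rests on 3 groups of 2. Of the 79 genes higher and 38 lower, leaving out 1 library left between 0 and 34 higher and between 0 and 3 lower. No expression filter gave 2 higher and 1 lower, with 23447 genes tested. A fit of all 18 libraries gave 246 and 145, and an estimate of the spread without a trend on expression gave 51 and 7. The genes lower were 24 with a pseudocount of 0.1, 19 with median-of-ratios scaling, 24 with quantile normalization, 14 in a fit of the 4 libraries alone, 61 with no fold threshold and 9 with chromosome 8 centered; the genes higher stayed between 54 and 81 in these. The median over all genes was -0.04, and 0.00 and -0.03 under those scalings. The 15 named genes called higher were all called under both scalings.

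For sorted against cultured cells, leaving out 1 library gave 145 to 238 larger and 54 to 97 smaller effects. Against bulk tumors it gave 6 to 31 larger and 5 to 30 smaller. A fit of the 12 libraries of both sample types gave 1 and 0 there, and a pseudocount of 0.1 gave 2 larger. For sg495 against sg492, leaving out 1 library gave 0 to 14 higher and 1 to 3 lower, a pseudocount of 0.1 gave 32 higher, and median-of-ratios scaling gave 14 lower. The chromosome 8 median of -0.34 was -0.19 with no filter on expression, and -0.385 to -0.334 with 1 library left out. Beyond fewer samples or more genes tested, the causes were not tested.

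Same-numbered libraries of different groups did not deviate together across all tested genes (r = -0.04 to 0.04). Smaller sets of genes were not examined in this way, and whether same-numbered libraries share a batch was not tested. With the replicate block, 68 genes were higher and 12 lower with sg495 than in controls, 182 and 62 effects were larger and smaller than in cultured cells, 3 and 2 than in bulk tumors, and 47 and 7 genes were higher and lower than with sg492.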

Other observations

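The small set of genes that separates sg495 replicate 2 from the other sorted libraries compared lay outside the calls. Irf5, a transcription factor of myeloid cells, had 0.44 and 0.46 TPM in the controls, 0.72 TPM in sg495 replicate 1 and 15.5 TPM in sg495 replicate 2. It had 4.68 and 9.44 TPM in the sorted sg492 libraries. The stress-inducible co-chaperone Dnajb1 had 39.5 and 50.5 TPM in the controls, 47.1 and 146 TPM with sg495, and 85.5 and 69.4 TPM with sg492. The immediate early gene Fos had 234 and 221 TPM in the controls and 254 and 468 TPM with sg495. None of these 3 genes passed the threshold, and all were chosen after their values were seen.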
